A study of Bos taurus with 20 samples.

Results

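Cytosolic nucleic acid sensors are proteins that detect RNA or DNA inside the cell, and 8 genes of this system were followed in maternal blood: RIGI, IFIH1, DHX58, MAVS, STING1, CGAS, EIF2AK2 and ZBP1. They were chosen by name, as the receptors, adaptors and effectors of cytosolic sensing, and were matched by symbol to the Entrez identifiers of the counts. All 8 were found among the 37063 genes in the files, and all 8 were among the 16206 genes that reached 10 counts in 5 or more cows, the minimum for a test. Whole blood had been drawn at day 63 of gestation from 20 recipient cows, each pregnant with a female beef-breed fetus made in vitro with X-sorted semen, and 1 library per cow was sequenced. All cows therefore formed 1 group, and calf birth weight (BW), from 30 to 72.5 kg with a mean of 45.0 ± 10.1 kg (SD, n = 20), was the only variable the labels give. Recipients differed in age according to the paper, and the age and parity of each cow were not used here. The methods describe the recipients as lactating dairy cows, whereas the paper elsewhere gives their breed as Angus, and the labels give neither breed nor age.

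RIG-I (encoded by RIGI) and MDA5 (IFIH1) are helicases that bind double-stranded RNA of different kinds, and LGP2 (DHX58) is their relative without a signalling domain, which tunes both. The receptors signal through MAVS, an adaptor on the outer mitochondrial membrane. For DNA, cGAS (CGAS) makes a cyclic dinucleotide that activates STING (STING1) on the endoplasmic reticulum. Both routes lead to the kinase TBK1 and to type I interferon. PKR (EIF2AK2) binds double-stranded RNA and stops translation, and ZBP1 binds Z-form nucleic acids and can start necroptosis. Several of these genes are themselves induced by interferon, and in cattle the early conceptus secretes interferon tau, which raises interferon-stimulated genes in maternal blood around the time of pregnancy recognition, weeks before the day sampled here.

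Each cow is named here by the BW of her calf, so that the 30 kg dam is the cow whose calf weighed 30 kg. Total counts per cow were between 24632077 and 39892111 (median 33412740), and the lowest total was that of the 30 kg dam. Of the markers of the labelled tissue, PTPRC, a surface protein of all leukocytes, had at least 114046 counts in every cow. Of the 7 placental markers in the files, PAG2, CSH2, PRP1, IFNT2 and CDX2 were listed at 0 throughout and KRT7 had at most 12 counts, while PAG1 had at least 8682 counts, a symbol shared with a membrane adaptor of lymphocytes. A listing at 0 is not read as absence, because widely expressed genes such as CASP8 were also listed at 0 in all cows. Levels below are CPM, counts relative to the library total scaled by TMM factors. They are not divided by transcript length and so are compared between cows, not between genes. Since blood was measured in bulk, fewer cells of a type and less RNA per cell cannot be told apart.

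Across the 20 cows, 5 of the genes, RIGI, IFIH1, DHX58, EIF2AK2 and ZBP1, were highest in the same animal, the 30 kg dam, while MAVS and STING1 had narrow ranges. RIGI was between 56.4 and 231 CPM with a median of 87.8. The highest value belonged to the 30 kg dam, and the next, 137 CPM, to the 37 kg dam. DHX58 had a wider range, from 49.9 to 259 CPM around a median of 66.8, although the second highest cow reached only 84.3 CPM. For ZBP1 the lowest, median and highest values were 53.1, 79.8 and 299 CPM, with 118 CPM in the second highest cow. These 3 genes thus had 1 cow well above the other 19.

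The dsRNA receptor gene IFIH1 lay between 102 and 254 CPM (median 127), and the kinase gene EIF2AK2 between 132 and 346 CPM (median 169). Their second highest cows had 163 and 214 CPM. Relative to the median of the other 19 cows, the 30 kg dam had 4.003-fold more ZBP1, 3.90-fold more DHX58, 2.73-fold more RIGI, 2.07-fold more EIF2AK2 and 2.01-fold more IFIH1. The same ratio was 1.23 for CGAS, 1.04 for MAVS and 0.954 for STING1, so in this animal neither adaptor shared the excess.

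Of the adaptors, MAVS was between 102 and 143 CPM (median 122) and STING1 between 59.4 and 94.0 CPM (median 76.4). Their coefficients of variation over 20 cows were 8.88% and 9.89%. CGAS was the least counted, with 53 to 174 counts per cow and 2.06 to 4.32 CPM (median 3.46), and its coefficient of variation of 16.05% stands beside the 9.42% that counting error alone would give at its mean count. The 56 kg dam had the lowest CPM of both STING1 and CGAS, and at the same time the second highest CPM of IFIH1 and ZBP1.

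**Figure D1:**
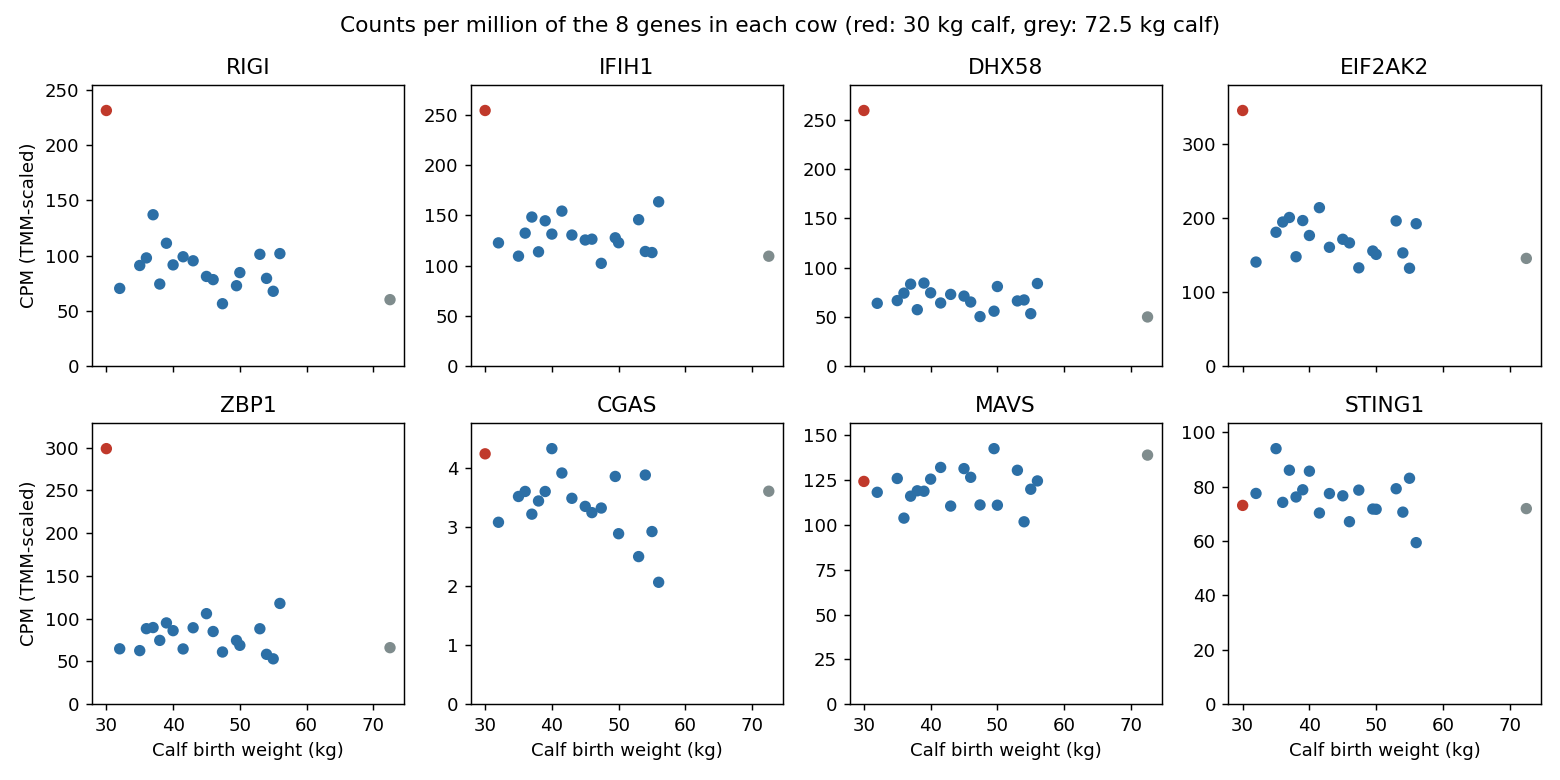
CPM of each gene (y axis, from 0) against calf BW in kg (x axis), 1 point per cow. The red point, the 30 kg dam, is the highest for RIGI, IFIH1, DHX58, EIF2AK2 and ZBP1 and within the range of the others for MAVS, STING1 and CGAS, and the grey point is the 72.5 kg dam.

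How far the genes varied was set beside all genes tested of like level, those within 0.5 of the gene's mean on the log2 CPM scale. The SD between cows of ZBP1 (0.53 on the log2 scale) was above that of 98.5% of the 1790 genes of like level. The corresponding shares were 98.0% for DHX58, 97.9% for RIGI, 94.98% for EIF2AK2 and 93.7% for IFIH1. MAVS and STING1, with SDs of 0.13 and 0.14, stood at 59.9% and 65.1%, and CGAS, with 0.25, at 18.2% of genes that are as low. Without the 30 kg dam the SD was 0.32 for RIGI, 0.31 for ZBP1, 0.24 for DHX58, 0.21 for EIF2AK2 and 0.18 for IFIH1. The 5 genes were then still more variable than MAVS (0.13) and STING1 (0.15), but not all more than CGAS. CGAS had an SD of 0.24, like DHX58 and above EIF2AK2 and IFIH1. The shares among genes of like level were not computed without that dam.

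The levels of the same 5 genes were correlated from cow to cow. Pearson and Spearman correlations of log2 CPM over 20 cows were computed for the 28 pairs of the 8 genes, with permutation p-values adjusted over the 28 pairs. All 10 pairs among RIGI, IFIH1, DHX58, EIF2AK2 and ZBP1 had an adjusted p below 0.05 by both measures, with Pearson correlations of 0.83 to 0.94, and 0 of the other 18 pairs did. RIGI and EIF2AK2 were the closest pair (r = 0.94, rho = 0.93, adjusted permutation p = 7e-05 and 9.33e-05). RIGI and IFIH1 gave r = 0.91 and rho = 0.88 (adjusted permutation p = 7e-05 and 9.33e-05), and RIGI and DHX58 gave r = 0.91 and rho = 0.86 (adjusted permutation p = 7e-05 and 0.00014). Among the partners of RIGI, IFIH1 and EIF2AK2 had rho = 0.86 (adjusted permutation p = 9.33e-05). DHX58 was less alike in rank to both, with rho = 0.70 for IFIH1 and 0.69 for EIF2AK2 (adjusted permutation p = 0.00245 and 0.00308).

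The 30 kg dam enlarged these values. When it was left out, the 10 pairs had Pearson correlations of 0.59 to 0.87, and all 10 again had an adjusted permutation p below 0.05. The lowest of them, RIGI with ZBP1, had r = 0.59 (adjusted permutation p = 0.0212) in place of 0.83. With both cows farthest from the median RIGI level removed, the 30 and 37 kg dams, RIGI kept r = 0.88 with EIF2AK2, 0.84 with DHX58, 0.80 with IFIH1 and 0.60 with ZBP1. Of these 4 genes ZBP1 was the one least correlated with RIGI.

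No correlation between a receptor and its adaptor passed the test. MAVS had r = -0.04 with RIGI (rho = -0.09, adjusted permutation p = 0.943 and 0.948) and r = 0.16 with IFIH1 (rho = 0.09, adjusted permutation p = 0.844 and 0.948), the receptors that signal through it. On the DNA side, CGAS and STING1 had r = 0.30 but rho = -0.09 (adjusted permutation p = 0.498 and 0.948), and r was -0.18 without the 35 and 56 kg dams. The 18 pairs with MAVS, STING1 or CGAS ranged from -0.27 to 0.30.

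**Figure D2:**
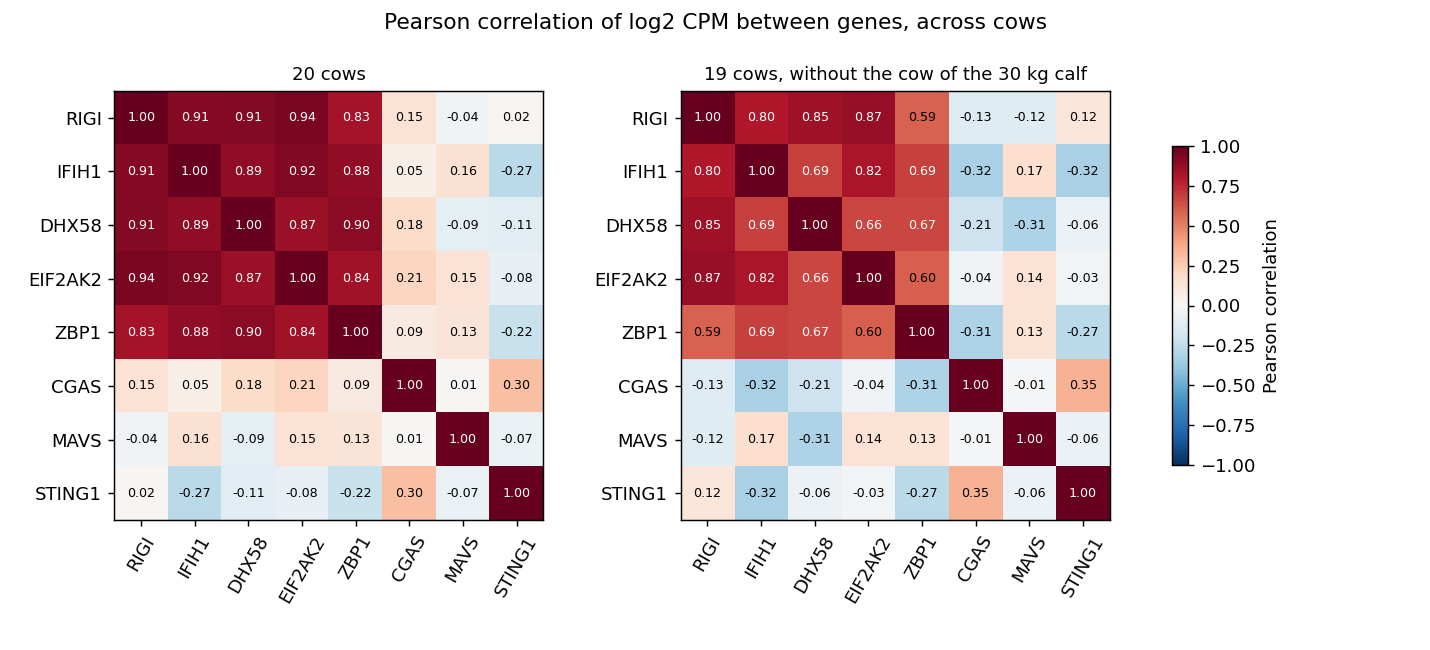
Pearson correlations of log2 CPM between the 8 genes across all 20 cows (left) and across 19 cows without the 30 kg dam (right). The block of RIGI, IFIH1, DHX58, EIF2AK2 and ZBP1 is between 0.83 and 0.94 on the left and between 0.59 and 0.87 on the right, and the pairs with CGAS, MAVS or STING1 lie between -0.27 and 0.30 on the left and between -0.32 and 0.35 on the right.

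Among the other 16198 genes tested, those most like each gene were named by their Spearman correlation over 20 cows, as a description. For RIGI these were HERC5 (0.91), HERC6 (0.90) and ZNFX1 (0.89), where HERC5 is the ligase that attaches ISG15 to proteins and ZNFX1 is an interferon-induced RNA helicase. IFIH1 was closest to HERC6 (0.86), PARP14 (0.85) and RSAD2 (0.84), the last an antiviral radical SAM enzyme. EIF2AK2 followed HERC6 (0.93), HERC5 (0.89) and RSAD2 (0.83), so 2 of its 3 partners were also those of RIGI. DHX58 was nearest to ISG15 (0.93), OAS2 (0.87) and OAS1Z (0.85), and ZBP1 to RSAD2 (0.83), IFI44 (0.82) and PARP12 (0.81). Since the OAS and HERC genes have close relatives that may take some of their reads, their values are less certain. For comparison, 5% of all other genes had a Spearman correlation above 0.39 with RIGI.

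Of the 35 interferon-stimulated genes tested, 17 were among the 50 genes most like RIGI, 17 for DHX58, 16 for IFIH1, 14 for EIF2AK2 and 14 for ZBP1. The count was 0 for MAVS, 0 for STING1 and 0 for CGAS. The partners of MAVS were MDM4 (0.90), an inhibitor of p53, TIA1 (0.88), an RNA-binding protein of stress granules, and LCORL (0.86). STING1 was closest to ADAMTS2 (0.90), CTSS (0.89), which encodes the lysosomal protease cathepsin S of antigen-presenting cells, and RASSF4 (0.88). CGAS was closest to LOC132346588 (0.84), MCMDC2 (0.83) and THAP8 (0.83). No interferon-stimulated gene of the list was therefore among the 50 genes most like these 3. The list holds only 35 of the 16198 genes, so a count of 0 does not set these 3 genes apart.

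A score, the mean z-score of the 35 interferon-stimulated genes without the 8 genes described here, and scores of blood cell markers were then compared with each gene over 20 cows, in 88 relations whose permutation p-values were adjusted together. DHX58 had r = 0.97 and rho = 0.90 with the interferon-stimulated score, RIGI 0.96 and 0.93, IFIH1 0.91 and 0.83, EIF2AK2 0.90 and 0.80, and ZBP1 0.89 and 0.77. The largest adjusted permutation p of these was 0.00103 for r and 0.00176 for rho, both for ZBP1. Leaving out the 2 cows with the scores farthest from the median, the 30 and 72.5 kg dams, gave r = 0.92 for RIGI, 0.87 for DHX58, 0.76 for EIF2AK2, 0.75 for IFIH1 and 0.66 for ZBP1. In contrast, r was 0.20 for CGAS (rho = 0.05, adjusted permutation p = 0.629 and 0.905), 0.02 for STING1 (rho = 0.19, adjusted permutation p = 0.945 and 0.667) and -0.04 for MAVS (rho = -0.19, adjusted permutation p = 0.917 and 0.673). The 30 kg dam had a score of 2.92 and the next highest cow 0.650.

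The adaptors and CGAS followed other blood features. STING1 was higher in cows with more monocyte marker RNA (r = 0.77, adjusted permutation p = 0.000528, and rho = 0.62, adjusted permutation p = 0.0489). Of 10 monocyte markers 9 were tested and FCGR1A was listed at 0 in all cows. Their summed level was 1956 to 4162 CPM, led by the lysozyme gene LYZ with a median of 1788 CPM. Without the 46 and 56 kg dams, farthest from the median of that score, r was 0.54 (permutation p = 0.0208), and with any 1 cow left out r was between 0.63 and 0.82. The correlation was thus positive in every one of these subsets of cows.

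MAVS was lower in cows with more platelet marker RNA (r = -0.63, adjusted permutation p = 0.0245, and rho = -0.66, adjusted permutation p = 0.0308). All 8 platelet markers were tested, summing to 625 to 1812 CPM, with TUBB1 of the platelet cytoskeleton highest at a median of 387 CPM. Without the 45 and 54 kg dams r was -0.46 (permutation p = 0.0558), so the relation rested in part on those cows. MAVS also had r = -0.56 with the erythroid score (rho = -0.49, adjusted permutation p = 0.081 and 0.193). The globin gene HBB led that list, with a median of 103 CPM and a highest value of 1059 CPM. With the monocyte score MAVS had r = -0.41 (rho = -0.54, adjusted permutation p = 0.292 and 0.147). Without the 46 and 56 kg dams that r was -0.57 (permutation p = 0.0135).

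CGAS was lower in cows with more IL5RA, the interleukin-5 receptor of eosinophils (r = -0.66, adjusted permutation p = 0.02), but rho was -0.53 (adjusted permutation p = 0.147). IL5RA was the only one of 8 eosinophil genes that could be used, because CCR3 and ALOX15 were listed at 0 and 5 symbols had no match, and it ranged from 20.2 to 199.9 CPM. Without the 40 and 56 kg dams r was -0.39 (permutation p = 0.114), so the relation rested in part on those cows. With any 1 cow left out r was between -0.70 and -0.50. STING1 also had r = -0.58 with IL5RA (rho = -0.42, adjusted permutation p = 0.0782 and 0.295). By rank CGAS was closest to the dendritic cell score, with rho = 0.62 (adjusted permutation p = 0.0538) and r = 0.45 (adjusted permutation p = 0.278). Of its 8 markers 5 were tested, and without the 46 and 53 kg dams r was 0.48 (permutation p = 0.0424). None of the cell marker scores had an adjusted p below 0.05 with RIGI, IFIH1, DHX58, EIF2AK2 or ZBP1. For these 5 genes the strongest such value was r = -0.51 between EIF2AK2 and natural killer markers (rho = -0.44, adjusted permutation p = 0.126 and 0.264), and r was -0.45 without the 2 farthest cows. Without the 30 kg dam that r was -0.40. The strongest value was then r = -0.55 between ZBP1 and neutrophil markers (adjusted permutation p = 0.117). A part of cell composition in these relations was not tested.

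**Figure D3:**
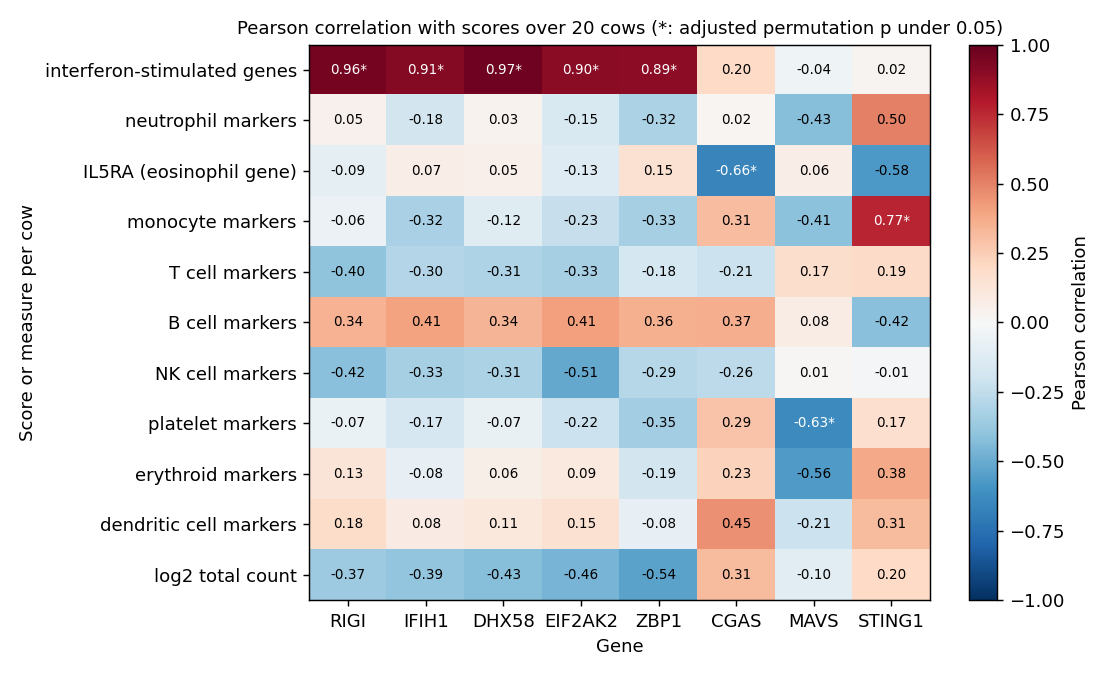
Pearson correlation over 20 cows of each gene (columns) with the interferon-stimulated score, blood cell marker scores, IL5RA and log2 total count (rows), with an asterisk where the adjusted permutation p was below 0.05. The interferon-stimulated row is 0.89 to 0.97 for 5 genes, and the other asterisks are STING1 with monocyte markers, MAVS with platelet markers and CGAS with IL5RA.

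**Figure D4:**
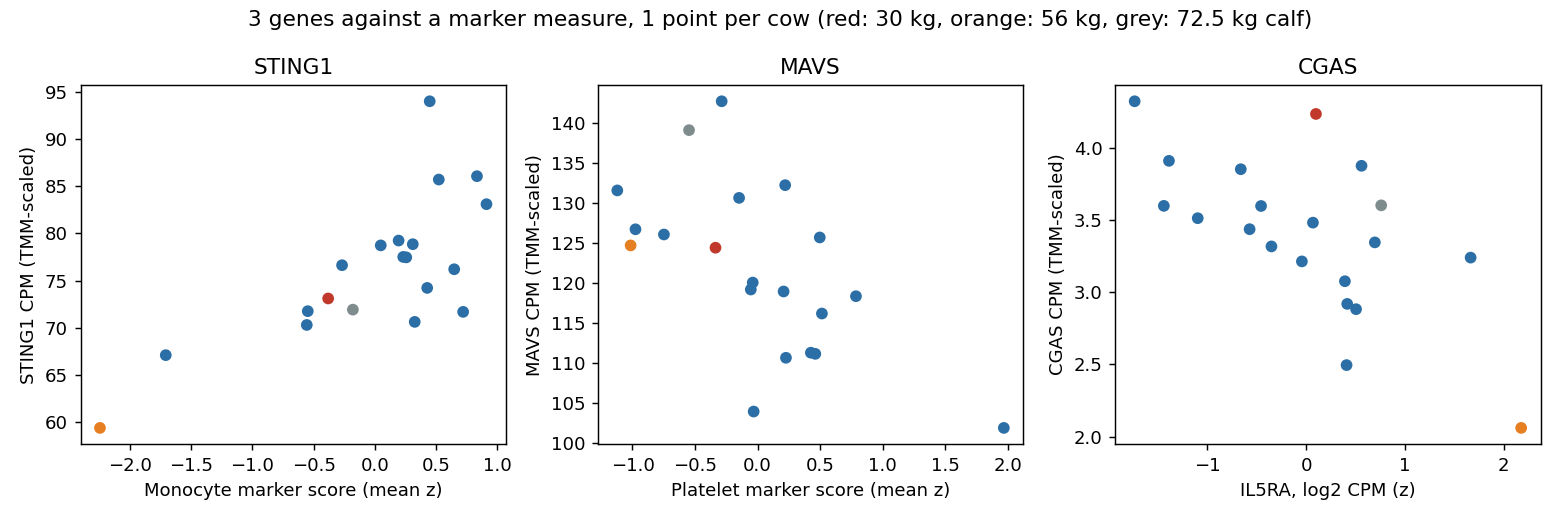
CPM of STING1, MAVS and CGAS (y axes, not from 0) against the monocyte score, the platelet score and IL5RA (x axes, z-scores), 1 point per cow. The orange point, the 56 kg dam, is the lowest for STING1 and CGAS.

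Whether the genes were associated with calf BW was tested with edgeR's quasi-likelihood test in the 19 cows without the 72.5 kg dam, which the study leaves out as an outlier. An FDR below 0.05, adjusted over the whole table, was reached by 0 of the 8 genes and by 0% of all genes. An unadjusted p below 0.05 was found for 5 of the 8, RIGI, DHX58, EIF2AK2, ZBP1 and CGAS, beside 13.9% of all genes, and all 5 slopes were negative, beside 7.08% of all genes with such a p and a negative slope. Of the 8 slopes 7 were negative, where 53.4% of all genes had a negative slope. Since RIGI, DHX58, EIF2AK2 and ZBP1 varied together, their slopes are not independent of each other.

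Slopes are log2 changes per kg of calf BW. DHX58 had the steepest, -0.037 (SE 0.012, p = 0.00624, FDR = 0.194 with edgeR), which is a difference of -22.8% per 10 kg. For ZBP1 it was -0.034 (SE 0.014, p = 0.0213, FDR = 0.267 with edgeR) and for RIGI -0.030 (SE 0.010, p = 0.00926, FDR = 0.214 with edgeR), or -21.2% and -18.8% per 10 kg. EIF2AK2 had -0.021 (SE 0.0078, FDR = 0.248) and IFIH1 -0.014 (SE 0.0076, FDR = 0.437). Of the helicase genes DHX58 thus had a steeper slope than RIGI, an order that turned without the 30 kg dam, and none passed the FDR.

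Of the remaining genes, CGAS had -0.016 (SE 0.0074, p = 0.0382, FDR = 0.329 with edgeR) and STING1 -0.0078 (SE 0.0041, FDR = 0.41). The slope of MAVS was 0.00020 (SE 0.0037, FDR = 0.988), with a 95% interval of -0.0076 to 0.0080 per kg. DESeq2's Wald test, the method of the study, called 1.15% of all genes at an FDR below 0.05 and 0 of the 8, for which its FDR was between 0.18 and 0.967.

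The slopes of the 5 correlated genes rested on 1 cow. Without the 30 kg dam the slope was -0.011 for RIGI (SE 0.0090, p = 0.243 with edgeR), -0.0047 for DHX58 (p = 0.495), -0.0069 for EIF2AK2 (p = 0.302), 0.00076 for IFIH1 (p = 0.896) and 0.00041 for ZBP1 (p = 0.967). Among the fits leaving out each of the 19 cows in turn, RIGI, DHX58 and EIF2AK2 had an unadjusted p below 0.05 in the 18 others. ZBP1 had one in 17, being 0.0504 without the 55 kg dam. With the 56 kg dam left out, in which IFIH1 and ZBP1 were second highest, the slope of IFIH1 was -0.020 (p = 0.0172) and that of ZBP1 -0.048 (p = 0.00285).

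STING1 and CGAS depended on other cows. Without the 30 kg dam STING1 had a slope of -0.010 (SE 0.0043, p = 0.0301, FDR = 0.313 with edgeR) and was the only one of the 8 with p below 0.05, where 13.5% of all genes had one. Without the 56 kg dam its slope was -0.0044 (p = 0.267). CGAS had an unadjusted p below 0.05 in 14 of the 19 fits, and without the 56 kg dam its slope was -0.011 (p = 0.15). With the monocyte score as a covariate STING1 had a slope of -0.0045 (p = 0.15) and CGAS -0.015 (p = 0.0604). The slopes of the 5 correlated genes were steeper in that fit. They were -0.043 for ZBP1 (p = 0.00247 with edgeR), -0.041 for DHX58, -0.033 for RIGI, -0.024 for EIF2AK2 and -0.018 for IFIH1 (p = 0.0194). The monocyte score itself had r = -0.26 with BW in the 19 cows (rho = -0.15, adjusted permutation p = 0.622 and 0.899 over 11 measures). Of the other measures, the interferon-stimulated score had r = -0.53 with BW (rho = -0.41, adjusted permutation p = 0.0962 and 0.228), and r = -0.38 without the 30 kg dam. IL5RA had r = 0.51 (rho = 0.55, adjusted permutation p = 0.147 and 0.171), and r = 0.57 without that dam.

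**Figure D5:**
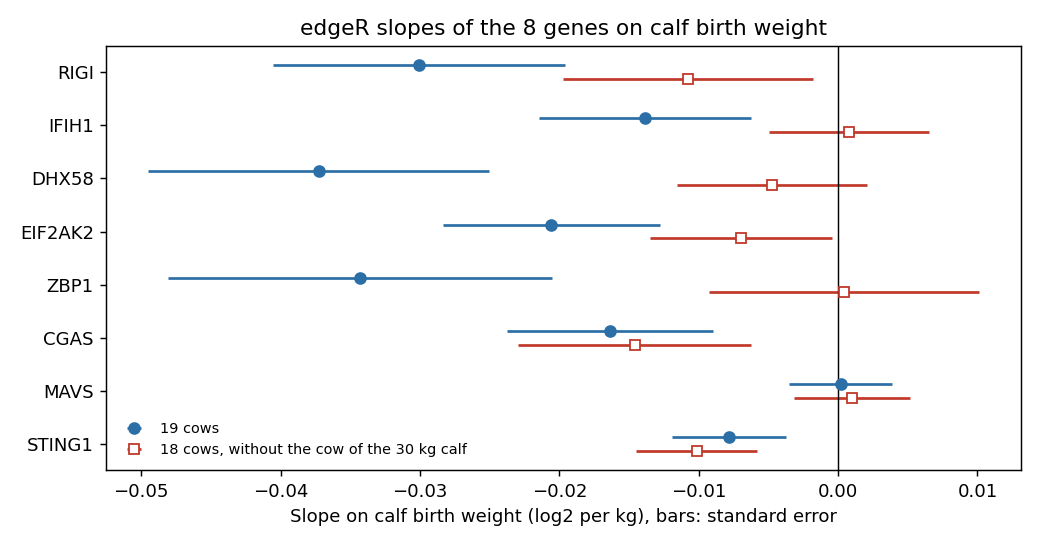
Slope of each gene on calf BW in log2 units per kg (x axis), with bars of 1 standard error, in 19 cows (filled circles) and without the 30 kg dam (open squares). The slopes of RIGI, DHX58, EIF2AK2, IFIH1 and ZBP1 move to between -0.011 and 0.00076, and those of MAVS, STING1 and CGAS change little.

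The 30 kg dam also stood apart in other measures. It had the smallest library, the second highest B cell marker score and the second lowest natural killer marker score of the 20 cows, while it ranked 11th for neutrophil and 16th for monocyte markers. With log2 total count as a covariate the slope was -0.027 for RIGI (p = 0.011 with edgeR), -0.031 for DHX58 (p = 0.00977), -0.019 for EIF2AK2 (p = 0.0138) and -0.028 for ZBP1 (p = 0.0224). ZBP1 had r = -0.54 with log2 total count (rho = -0.36, adjusted permutation p = 0.0812 and 0.458), which was r = -0.29 without the 30 kg dam and -0.087 without the 30 and 56 kg dams. The part of depth and of B and natural killer cell markers in this cow's values was not tested.

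To ask whether a sensor was associated with BW differently from the adaptor measured in the same library, the slope of log2(gene/MAVS) on BW was tested for 7 ratios by permutation in 19 cows. None had an adjusted p below 0.05. The smallest p-values were those of CGAS/MAVS, with a slope of -0.017 (SE 0.0075, permutation p = 0.0312, adjusted 0.0964), and EIF2AK2/MAVS, with -0.018 (SE 0.0084, permutation p = 0.0428, adjusted 0.0964). RIGI/MAVS had -0.025 (SE 0.012) and DHX58/MAVS -0.027 (SE 0.014), each with an adjusted permutation p of 0.0964. Leaving out the 32 kg dam or the 56 kg dam brought 4 of the 7 ratios below 0.05, and leaving out the 54 kg dam 1, whereas without the 30 kg dam the smallest adjusted permutation p was 0.285. The call for these ratios therefore changed with single cows.

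Within the helicases, a comparison chosen after the slopes were seen, RIGI/IFIH1 had a slope of -0.014 (SE 0.0055, permutation p = 0.0256) and DHX58/IFIH1 -0.016 (SE 0.0075, permutation p = 0.0377). Adjusted over 3 such ratios both had p = 0.0565, and without the 30 kg dam their slopes were -0.010 (permutation p = 0.0994) and -0.0057 (permutation p = 0.329).

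The other genes of these pathways had slopes in both directions. All 28 genes of the RNA sensor pathway were tested, 14 with a negative and 14 with a positive slope (median 2.5e-05 per kg, against -0.00072 for all genes). None had an FDR below 0.05 with edgeR, and 2 with a negative and 4 with a positive slope had an unadjusted p below 0.05, beside 13.9% of all genes with such a p and 7.08% with a negative slope too. IRF7, the interferon regulatory factor that amplifies the response, had -0.041 per kg (FDR = 0.0976 with edgeR) and the deubiquitinase CYLD, a brake on RIG-I, -0.0065 (FDR = 0.182). The ligase RNF125, which marks RIG-I for degradation, had 0.010 (FDR = 0.238), and the shared kinase TBK1 had 0.0093 (FDR = 0.283). With DESeq2 1 gene of this list was called, IRF7 (FDR = 0.00929), beside 1.15% of all genes. IRF7 is also on the interferon-stimulated list below, where the same call is counted again. IRF7 was highest in the 30 kg dam, and its slope without it was -0.023 (p = 0.00305 with edgeR).

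In the DNA sensor pathway 21 of 22 genes were tested, 13 with a negative slope, beside 53.4% of all genes. An unadjusted p below 0.05 was found for 3 with a negative and 1 with a positive slope, again beside 13.9% of all genes. The positive one was ULK1 (0.022 per kg, FDR = 0.208 with edgeR), a kinase that can phosphorylate STING. The others were USP18 (-0.029), which is also interferon-stimulated, TRIM56 (-0.0090), a ligase acting on the cGAS and STING route, and ZDHHC3 (-0.0081), a palmitoyltransferase, and all 3 had their highest CPM in the 30 kg dam. With that animal left out their slopes were -0.0084 (p = 0.293), -0.0049 (p = 0.112) and -0.0041 (p = 0.276). TRIM32 was listed at 0 in every cow and gave no value.

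For the PKR and stress pathway, all 15 genes were tested and 5 had a negative slope, beside 53.4% of all genes. An unadjusted p below 0.05 was found for 1 with a negative and 1 with a positive slope, beside 13.9% of all genes. PPP1R15B, the constitutive partner of the phosphatase that reverses PKR's action on eIF2, had 0.0071 per kg (FDR = 0.197 with edgeR) and EIF2B1, a subunit of the exchange factor of eIF2, had -0.011 (FDR = 0.267). EIF2AK3 (0.0039) and DDIT3 (0.0052) had FDRs of 0.514 and 0.562. Of the ZBP1 and necroptosis pathway 8 of 9 genes were tested, since CASP8 was listed at 0 in every cow, and 5 had a negative slope. Of these 8 genes 1 had a negative slope with an unadjusted p below 0.05, where 7.08% of all genes had both. ADAR, an RNA editing enzyme that like ZBP1 binds Z-form nucleic acids, had -0.016 (FDR = 0.213) and was highest in the 30 kg dam, at 664 CPM around a median of 362, and its slope without that dam was -0.0043 (p = 0.207 with edgeR). FADD (0.0086), TNFAIP3 (0.0063) and CFLAR (0.0026) had FDRs of 0.455 to 0.641.

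Among 25 other nucleic acid sensors 11 had a negative and 14 a positive slope, where 53.4% of all genes had a negative one. In each direction 1 had an unadjusted p below 0.05, beside 13.9% of all genes with such a p. These were IFI16 (-0.012 per kg, FDR = 0.216 with edgeR), a DNA sensor of the nucleus and cytosol, and LRRFIP1 (0.0066, FDR = 0.213). XRCC5 and MRE11 had -0.0094 and 0.0051. Of 40 interferon-stimulated genes listed 35 were tested, because IFIT2 and IFIT3 were listed at 0 and 3 symbols had no match. In these, 35 of 35 slopes were negative, 24 of them with an unadjusted p below 0.05, where 7.08% of all genes had both. DESeq2 called 7 and edgeR 0 at an FDR below 0.05, beside 1.15% and 0% of all genes. The median slope with edgeR was -0.022 per kg. Most of the 35 genes were highest in the 30 kg dam, so their slopes are not independent of each other. Without that dam 29 of 35 were negative, with a median of -0.0082. An unadjusted p below 0.05 was then found for 9, beside 13.5% of all genes. The genes of this list with the smallest p were IFI6 (-0.059), MX2 (-0.089), IRF7 (-0.041) and RSAD2 (-0.083), which without that dam had slopes of -0.028, -0.027, -0.023 and -0.021. For the 8 sensor genes the medians with and without that cow were -0.018 and -0.0058.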

How the data were processed

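RNA was measured in whole blood of 20 cows, with 1 library per cow and calf BW from the labels. The authors deposited raw counts per Entrez identifier, without normalization, which featureCounts (Subread 2.0.3) had made from reads trimmed by Trimmomatic and mapped by STAR 2.7.0b on ARS-UCD1.3. The paper names a Truseq-stranded kit and the labels a SMARTer Stranded kit, and the strand setting and the handling of reads that fit several genes are not given in the sources used here. In the gene table TOPORS overlaps RIGI, SMIM33 overlaps STING1 and GPATCH11 overlaps EIF2AK2, so the counts of these 3 are less certain. Symbols came from an ARS-UCD2.0 table, which held all 37063 identifiers. Its build is not that of the files, so positions are left out.

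The slope on BW in 19 cows was tested by quasi-likelihood in edgeR 4.0.16 under R 4.3.3, after TMM scaling. A gene needed 10 counts or more in 5 or more cows, which 16206 did, and Benjamini-Hochberg adjustment was over these. The SE is the slope divided by the root of the F statistic. Alternatives were DESeq2 1.42.0, voom in limma 3.58.1, another filter, scaling or covariate, the rank of BW, all 20 cows, and each cow left out in turn. Correlations used log2 CPM with a prior count of 2 and two-sided permutation tests with 100000 resamples, whose smallest p is 1e-05. The edgeR step was tested on simulated counts. With 1 library per cow the spread includes both animals and libraries. Permutations ran in Python 3.11.15 (numpy 2.4.6, scipy 1.17.1).

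The genes, lists and tests were chosen with earlier results of these data known. Besides the 8 genes, the text names the 3 genes most like each, the 4 genes with the smallest p of each pathway list, and the most abundant gene of a marker list. PTPRC, the placental genes and the genes listed at 0 were named outside this rule, after their values were seen. DESeq2 with 1 cow left out, ratios to IFIH1 or STING1, and the correlations of scores with BW were added after seeing the data. Sequences of the genes and levels per transcript length were not analysed here.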

Additional observations from a re-analysis of the deposited data

How the results depend on the processing

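No gene of the 8 had an edgeR FDR below 0.05 under any alternative run. DESeq2 called 2 of them, RIGI (FDR = 0.0361) and EIF2AK2 (FDR = 0.0487), only without the 32 kg dam, so the range over the edgeR and DESeq2 fits with 1 cow left out was 0 to 2. Genes called over the whole table numbered 0 with edgeR (smallest FDR 0.0753, 2247 genes at an unadjusted p below 0.05), 187 with DESeq2, 147 without a count filter, 4 with all 20 cows and 1 with log2 total count as a covariate, and between 0 and 431 with 1 cow left out, the most with DESeq2 without the 32 kg dam. Of the 8 genes, 5 had an unadjusted p below 0.05, with voom 3, and with 1 cow left out between 1 and 6, the fewest without the 30 kg dam. Ratios to MAVS with an adjusted p below 0.05 numbered 0 and, with 1 cow left out, between 0 and 4. With STING1 as the denominator there were 0. The slope of MAVS changed sign with voom (-9.17e-05) and with the neutrophil (-0.00045), monocyte (-0.0015) and erythroid (-0.0031) scores as covariates, and was between -0.0014 and 0.0032 over the edgeR and DESeq2 fits with 1 cow left out. Over the same fits the slope of IFIH1 was between -0.020 and 0.0013 and that of ZBP1 between -0.048 and 0.0010, and both turned positive only when the 30 kg dam was left out. The correlation with the interferon-stimulated score changed sign for MAVS (0.071) and STING1 (-0.011) without the 72.5 kg dam. With 1 cow left out it was between -0.172 and 0.0714 for MAVS, -0.0339 and 0.167 for STING1, and -0.123 and 0.304 for CGAS. The cause was not tested. The 10 correlated pairs and the 5 genes correlated with that score numbered 10 and 5 under every alternative run. CGAS had the fewest counts of the 8 genes, 53 to 174 per cow.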

Other observations

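The 72.5 kg dam took no part in the slopes. Among the 20 cows it had the lowest CPM of DHX58 (49.9) and the second lowest of RIGI (60.1) and IFIH1 (109). It ranked 17th for EIF2AK2 (146 CPM) and 14th for ZBP1 (66.1 CPM), while it had the second highest CPM of MAVS (139). With all 20 cows in the edgeR fit the slope was -0.027 per kg for RIGI (p = 0.00341, FDR = 0.193), -0.031 for DHX58 (p = 0.00419, FDR = 0.204) and 0.0034 for MAVS (p = 0.239, FDR = 0.633). EIF2AK2 had -0.016 (p = 0.0142), ZBP1 -0.026 (p = 0.0229), IFIH1 -0.012 (p = 0.0479) and STING1 -0.0055 (p = 0.0815). The slope of CGAS was -0.0074 (p = 0.201, FDR = 0.594), so its unadjusted p below 0.05 depended on leaving out the 72.5 kg dam.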
